A study of Mus musculus with 7 samples.

Results

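The transcripts of 10 genes of cysteine use were followed in mature (MII) mouse oocytes, which wait for the sperm in the middle of the second meiotic division, with 1 oocyte per library and with or without loss of Hira. All 10 were found among the 37620 genes of the deposited table by their symbols. They are a list chosen by name, with earlier results on these oocytes known, among them the high Cdo1 level in KO oocytes, so the values are a description and no test is given. Each library is 1 oocyte, and the labels name no animal, so each genotype counts as 1 sample here. There were 4 KO oocytes (KO1 to KO4), labelled Hiraf/f, Zp3-Cre, and 3 WT oocytes (WT1, WT2 and WT4), labelled Hiraf/f. Both genotypes thus carried the floxed Hira alleles, and the KO oocytes also carried Cre under the promoter of Zp3, which is active in growing oocytes, so other cells of the animal are not targeted. Hira encodes a chaperone that places the histone variant H3.3 on DNA. The labels give no strain, age or hormone treatment.

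Cysteine is the branch point of this pathway. Cells import it, mostly as the oxidised dimer cystine, or make it from methionine through homocysteine and cystathionine (transsulfuration). It is then either oxidised, which leads to taurine or sulfate, or joined with glutamate and glycine into glutathione, the main small thiol of the cell. Mature mammalian oocytes are known for a large glutathione store, which serves redox balance and the remodelling of the sperm nucleus after fertilization, and the surrounding cumulus cells help to supply cysteine for it.

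Levels are given as FPKM, fragment counts divided by gene length and by the size of the library, so they can be compared between genes, and they are relative to the other RNA of the same oocyte. Fewer transcripts of a gene and more of all other RNA cannot be told apart. Reads in genes, recovered from the steps of the FPKM values, came to 15887904 to 25940519 per KO oocyte and 15340782 to 20077129 per WT oocyte. Hira was at 0.0242 to 0.0997 FPKM in KO oocytes and 0.291 to 0.347 FPKM in WT oocytes, over the whole gene and not the deleted part alone. All 12 oocyte markers examined were above the filter given next. Their summed level was 10203 to 12616 FPKM in KO oocytes and 16294 to 17335 FPKM in WT oocytes. Dppa3 was the largest part, at a mean of 5718 FPKM in KO and 9676 FPKM in WT. Dppa3, Gdf9, Bmp15 and Oosp1, 4 of the 12, lay wholly below WT, against 8.94% of all genes above the filter. The other markers overlapped, and Mos, Ooep and Npm2 had higher means in KO. Of 26 cumulus and granulosa cell markers, 11 were at 0 in all 7 oocytes, among them Foxl2, Amh and Lhcgr. Above the filter were 5 of the 26. By the measure given next, 2 of these 5 were over 2-fold higher in KO oocytes (Fshr and Nr5a2). Among all genes above the filter, that share was 7.95%. Fshr passed the filter only through KO oocytes. Fshr, the receptor of follicle-stimulating hormone, was at 0, 2.99, 4.34 and 4.51 FPKM in KO1 to KO4 and listed at 0 in all 3 WT oocytes, from 763 reads in KO and 0 reads in WT. Nr5a2, a nuclear receptor, was at 7.25 ± 0.904 FPKM in KO and 2.53 ± 0.994 FPKM in WT oocytes, without overlap. The summed level of those 26 markers was 244 to 307 FPKM in KO oocytes and 206 to 275 FPKM in WT oocytes, most of it from Serpine2 and Cyp19a1. Without that pair, a choice made after the values were seen, it was 14.2 to 18.2 FPKM in KO oocytes and 5.23 to 8.02 FPKM in WT oocytes. Most of this remainder came from Nr5a2, Fshr and Kitl, the last at a mean of 4.52 FPKM in KO and 3.11 FPKM in WT. Other markers, such as Has2, Ptgs2 and Hsd3b1, had lower means in KO, all near 0. The part of either marker list in the results below was not tested.

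Of the 10 genes, 7 reached an FPKM of 1 in 3 or more of the oocytes, the filter that 8033 genes passed. Of these 7, 3 were over 2-fold higher in KO oocytes (Cdo1, Gclc and Slc6a6), 1 was over 2-fold lower (Cth), and 3 were within 2-fold (Csad, Gclm and Slc7a11). The fold here is taken between the genotypes' means of log2(FPKM + 1), as KO minus WT past 1 in either direction. Among all 8033 genes, the share over 2-fold higher was 7.95% and the share over 2-fold lower was 2.34%. With the libraries scaled by median ratios, these shares were 5.12% and 4.25%, and of the 7 genes Cdo1 and Gclc passed the limit upward and Cth downward. With a pseudocount of 5 in place of 1, Cdo1 alone was over 2-fold higher. The same 4 genes had no overlap between genotypes, 3 with the KO oocytes above and 1 with them below, and 6.75% and 1.89% of all genes above the filter met both conditions in those directions. For all genes above the filter, every KO oocyte lay above every WT oocyte in 18.9% and below in 8.94%. As a description of the genes that passed, the median difference of the 7 was 0.87, against 0.18 for all genes above the filter. Gclc passed the filter through its KO oocytes, since WT4 alone of the WT oocytes reached 1 FPKM. The median of all 10 genes, with no filter, was 0.35. Cbs, Gss and Gsr did not reach 1 FPKM in any oocyte.

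**Figure D1:**
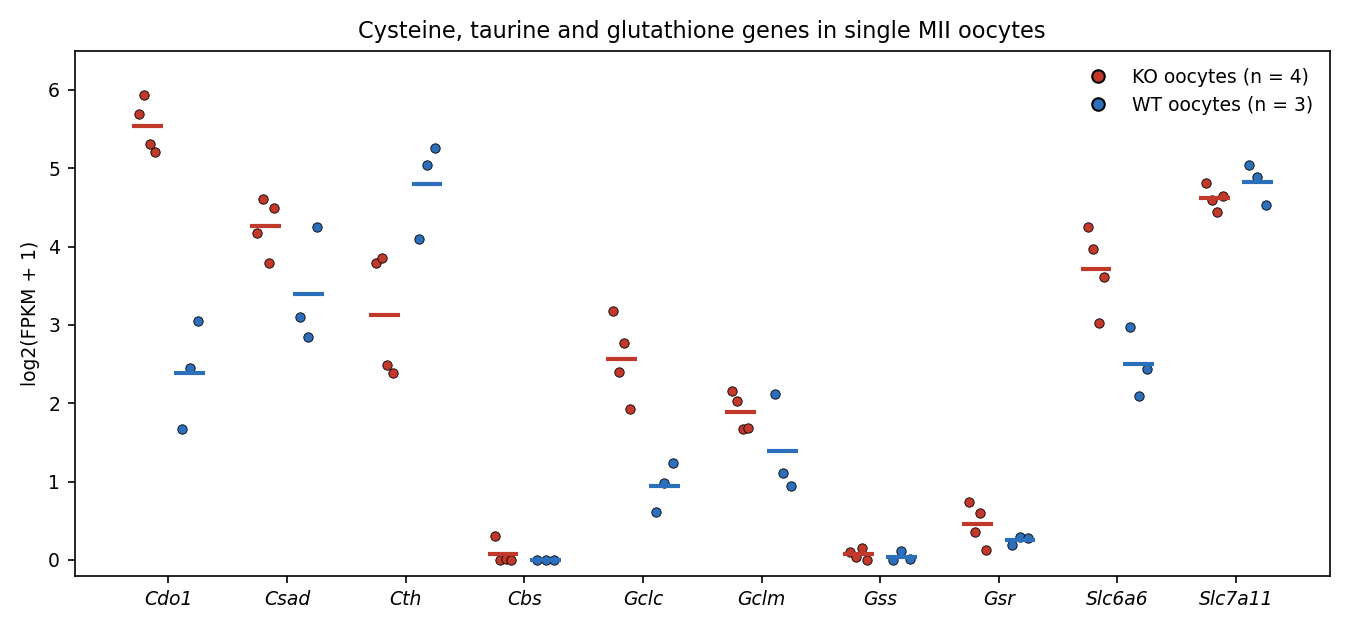
Level of each of the 10 genes as log2(FPKM + 1) in single oocytes; each point is 1 oocyte (KO in red, left, 4 oocytes; WT in blue, right, 3 oocytes) and each bar is the mean of a genotype. The points of Cdo1, Gclc and Slc6a6 lie higher in all KO oocytes than in any WT oocyte, and those of Cth lie lower.

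Promoter sequence from RefSeq (GRCm38.p6) was used for 5 of the 10 genes (Csad, Cbs, Gclm, Gss and Slc7a11). Cdo1, Cth, Gclc, Slc6a6 and Gsr were not searched, so none of the members over 2-fold apart is covered. Each window ran from 250 bases before to 50 bases after a start, and there were 6 windows since Csad has a pair of starts. They were searched on both strands for the core of the antioxidant response element, bound by NRF2 (TGACNNNGC), and for the core of the C/EBP-ATF element, bound by ATF4 (TGATGNAA), because transcripts of both factors are described below. The antioxidant core was in 1 of the 6 windows, that of Gclm, and in 12.4% of all 32851 windows. The C/EBP-ATF core was in 1 of the 6 windows, that of Slc7a11, and in 3.97% of all windows. The Slc7a11 window holds a facing pair of this core, starting 66 and 47 bases before the start. In the Gclm window the match starts 134 bases before the start, on the other strand. A match is only these letters in the window, and the motifs do not overlap each other. Both windows are shown 5′ to 3′ on the gene's strand, with the matches in capitals: Slc7a11 at chr3:50443564-50443863 (minus strand) and Gclm at chr3:122245307-122245606 (plus strand).
Slc7a11: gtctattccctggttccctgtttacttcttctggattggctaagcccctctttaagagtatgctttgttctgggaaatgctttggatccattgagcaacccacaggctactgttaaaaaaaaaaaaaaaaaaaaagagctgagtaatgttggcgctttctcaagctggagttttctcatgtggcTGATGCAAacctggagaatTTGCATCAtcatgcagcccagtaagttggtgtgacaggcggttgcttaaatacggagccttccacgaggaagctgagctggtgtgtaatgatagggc
Gclm: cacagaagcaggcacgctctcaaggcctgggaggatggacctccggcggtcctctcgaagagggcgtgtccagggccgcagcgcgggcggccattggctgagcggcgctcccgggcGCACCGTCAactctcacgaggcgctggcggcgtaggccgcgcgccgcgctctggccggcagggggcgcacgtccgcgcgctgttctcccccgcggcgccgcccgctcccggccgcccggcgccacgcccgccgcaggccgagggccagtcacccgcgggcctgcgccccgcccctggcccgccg

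Cdo1 and Cth exchanged rank between the genotypes. Cdo1 encodes cysteine dioxygenase, which oxidises cysteine to cysteine sulfinate and so commits it to breakdown. It was at 50.9, 60.3, 38.7 and 35.8 FPKM in KO1 to KO4, against 2.18, 4.46 and 7.29 FPKM in WT1, WT2 and WT4. The lowest KO oocyte was thus far above the highest WT oocyte. The mean was 46.4 ± 11.3 FPKM in KO and 4.64 ± 2.56 FPKM in WT oocytes (SD over oocytes, n = 4 and n = 3), 9.995-fold apart. These levels rested on 6968 reads in KO and 435 reads in WT oocytes. Cdo1 ranked between 663 and 1067 among all genes of a KO oocyte by level, and between 3145 and 5624 in WT oocytes. No other annotated gene overlaps its exons, and none of its 50-base stretches occurs in another gene's transcripts.

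Csad encodes cysteine sulfinate decarboxylase, the next step toward taurine. It was at 17.1, 23.4, 12.8 and 21.5 FPKM in KO1 to KO4, against 7.56, 6.18 and 18.05 FPKM in WT1, WT2 and WT4. WT1 and WT2 lay below all KO oocytes, while WT4 lay within their range. The difference was 0.87 on the log2 scale, and it passed the 2-fold limit without WT4 (1.30) or without KO3 (1.03), while it was 0.59 without WT2 and 0.64 with median-ratio scaling. Part of Csad's exons overlaps Zfp740 on the opposite strand, and whether strand was used in counting is not given in the sources used here, so reads of that stretch cannot be assigned with certainty.

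Cth encodes cystathionine gamma-lyase, which releases cysteine in the last step of transsulfuration. It was at 12.8, 13.5, 4.63 and 4.25 FPKM in KO1 to KO4, against 16.2, 32.1 and 37.4 FPKM in WT1, WT2 and WT4. Every KO oocyte was below every WT oocyte, but KO1 and KO2 were close to WT1. The mean was 8.80 ± 5.05 FPKM in KO and 28.6 ± 11.1 FPKM in WT oocytes, a difference of -1.67 on the log2 scale. Cth had 2430 reads in KO and 5253 reads in WT oocytes.

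Cbs encodes cystathionine beta-synthase, the step before Cth. KO1 held 25 of its reads and KO3 held 1, and it had 0 reads in KO2, in KO4 and in all 3 WT oocytes. In FPKM, KO1 was at 0.235 and KO3 at 0.00581, and the others were listed at 0. The count of 0 in WT lies under a floor of 3 reads in 52770171, and its exact 95% upper limit, of a two-sided interval, is 3.69 reads. The Cbs reads came almost wholly from 1 oocyte, so no fold is given.

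The ratio of Cdo1 to Cth within an oocyte does not change when a library is scaled by a single factor. It was 3.96, 4.47, 8.36 and 8.42 in KO1 to KO4, against 0.135, 0.139 and 0.195 in WT1, WT2 and WT4. Cdo1 was thus the higher of the pair in every KO oocyte and the lower in every WT oocyte. The log2 ratio differed by 5.27 between genotypes, and by 5.10 to 5.46 when any single oocyte was left out. Csad to Cth had the same order, at 1.33, 1.73, 2.77 and 5.06 in KO1 to KO4 and 0.468, 0.193 and 0.482 in WT1, WT2 and WT4. Cdo1 was also above Csad in all KO oocytes, with ratios of 1.67 to 3.02, and below it in all WT oocytes, with ratios of 0.288 to 0.723.

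**Figure D2:**
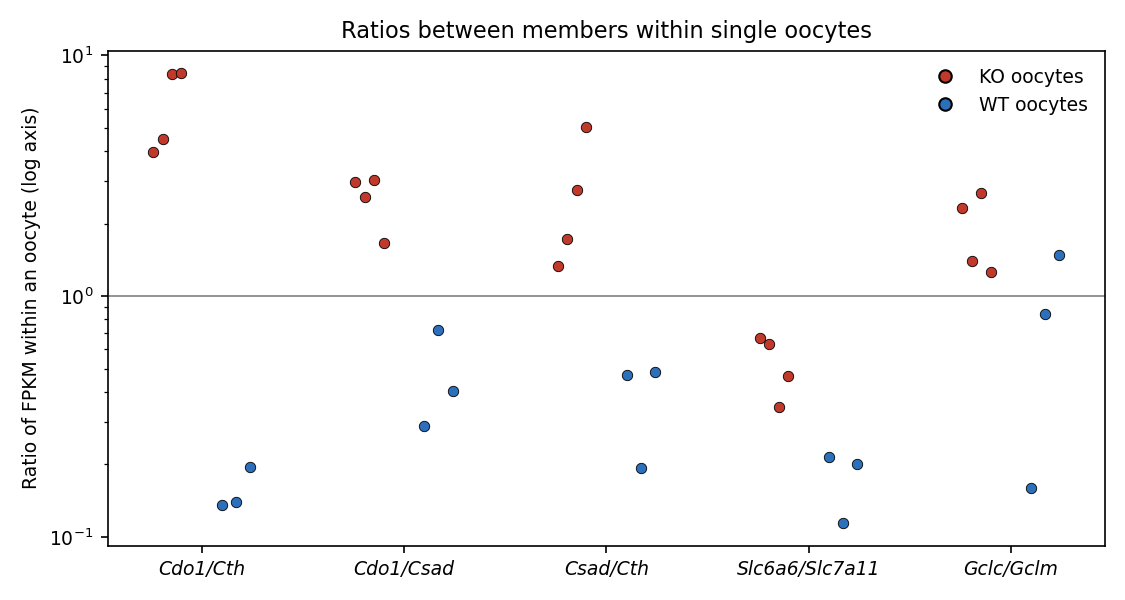
Ratio of FPKM of 2 genes within the same oocyte (log axis), with KO oocytes in red on the left and WT oocytes in blue on the right; each point is 1 oocyte and the grey line marks equal levels. Cdo1/Cth, Cdo1/Csad and Csad/Cth lie above 1 in all KO oocytes and below 1 in all WT oocytes, Slc6a6/Slc7a11 is below 1 throughout, and Gclc/Gclm overlaps between genotypes.

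Glutathione is made in 2 steps, and the first is limited by glutamate-cysteine ligase, which has a catalytic subunit (Gclc) and a modifier subunit (Gclm). Gclc was at 8.06, 4.29, 5.82 and 2.79 FPKM in KO1 to KO4, against 0.531, 0.973 and 1.36 FPKM in WT1, WT2 and WT4. Even KO4, the lowest KO oocyte, was above WT4, the highest WT oocyte. The mean was 5.24 ± 2.25 FPKM in KO and 0.956 ± 0.417 FPKM in WT oocytes, 5.48-fold apart, from 1753 and 202 reads. Its difference was 1.62 on the log2(FPKM + 1) scale, which is compressed at such levels, and it was 0.76 with a pseudocount of 5.

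Gclm overlapped between genotypes. It was at 3.46, 3.07, 2.18 and 2.21 FPKM in KO1 to KO4, against 3.33, 1.16 and 0.920 FPKM in WT1, WT2 and WT4. WT1 lay within the KO range, and WT2 and WT4 lay below it. The difference was 0.49, with 0.86 without WT1, 0.27 without WT4 and 0.20 with a pseudocount of 5. Exons of 2 other annotated genes overlap those of Gclm, and 4.58% of its 50-base stretches occur in other genes. In KO oocytes Gclc stood above Gclm in all 4, by 1.26 to 2.67 times, while in WT oocytes the ratio was 0.159 in WT1, 0.842 in WT2 and 1.48 in WT4, so the ratio overlapped between genotypes.

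Glutathione synthase (Gss), the enzyme of the second step, and glutathione reductase (Gsr), which returns oxidised glutathione to its reduced form, were barely detected. Gss had 11, 5, 30 and 0 reads in KO1 to KO4 and 0, 16 and 1 reads in WT1, WT2 and WT4. Its read rate in KO was 1.72 times that in WT (95% interval 0.966 to 3.19, counting error only), and the oocytes overlapped. Gss exons overlap those of 3 genes on the opposite strand, among them Acss2, and 10.3% of its 50-base stretches occur in other genes. Gsr was at 0.669, 0.281, 0.513 and 0.0926 FPKM in KO1 to KO4, against 0.141, 0.229 and 0.210 FPKM in WT1, WT2 and WT4. KO4 was the lowest of all 7 oocytes, while the other KO oocytes were above all WT oocytes. Gsr rested on 159 reads in KO and 51 reads in WT, a rate ratio of 1.98 (1.43 to 2.77, counting error only).

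Both transporters were above the filter. Slc6a6 encodes TauT, the sodium-coupled importer of taurine. It was at 18, 14.7, 7.18 and 11.2 FPKM in KO1 to KO4, against 6.89, 3.25 and 4.44 FPKM in WT1, WT2 and WT4. The genotypes did not overlap, although KO3 was only just above WT1. The mean was 12.8 ± 4.64 FPKM in KO and 4.86 ± 1.86 FPKM in WT oocytes, a difference of 1.21 that fell just under the 2-fold limit with median-ratio scaling (0.998) and was 0.83 with a pseudocount of 5. A predicted gene on the opposite strand, Gm44981, overlaps part of its exons.

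Slc7a11 encodes xCT, the exchanger that brings in cystine for glutamate. It was at 26.97, 23.2, 20.7 and 24.0 FPKM in KO1 to KO4, against 32.0, 28.5 and 22.1 FPKM in WT1, WT2 and WT4. The genotypes overlapped, and the difference was -0.20, with -0.43 under median-ratio scaling, -0.34 without WT4 and -0.08 without WT1. With 26420 reads in KO and 19642 reads in WT oocytes it was the most deeply read of the 10 genes. Slc3a2, the heavy chain that carries xCT to the membrane, was at 38.9, 39.0, 41.5 and 41.9 FPKM in KO1 to KO4, against 33.1, 27.3 and 42.3 FPKM in WT1, WT2 and WT4. The ratio of Slc6a6 to Slc7a11 was 0.347 to 0.667 in KO oocytes and 0.114 to 0.215 in WT oocytes.

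**Figure D3:**
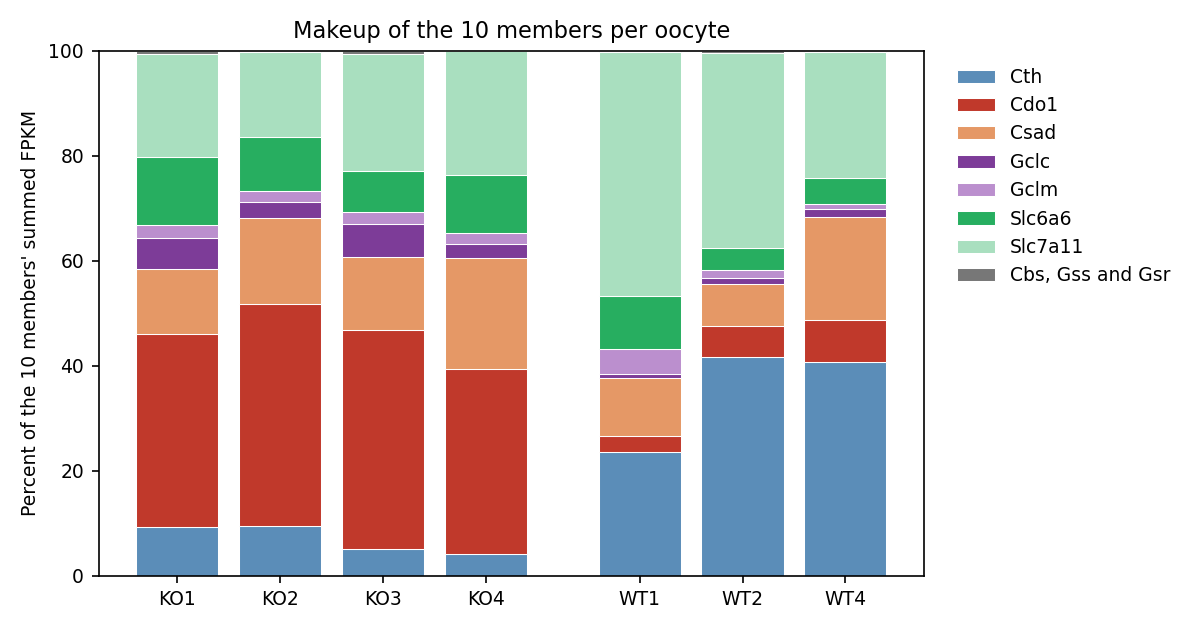
Share of each gene in the summed FPKM of the 10 genes (percent), 1 bar per oocyte, with the 4 KO oocytes on the left and the 3 WT oocytes on the right. The Cdo1 share is 35.2% to 42.3% in KO oocytes and 3.17% to 7.95% in WT oocytes, and the Cth share is 4.18% to 9.46% in KO and 23.5% to 41.7% in WT oocytes.

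The makeup of the pathway can be read from each gene's share of the summed FPKM of the 10. The sum itself was 119 ± 25.3 FPKM in KO and 79.2 ± 11.6 FPKM in WT oocytes, with KO3 (92.6) close to WT4 (91.8). Cdo1 made up 39.0% ± 3.57 in KO and 5.64% ± 2.39 in WT oocytes, and was the largest of the 10 in every KO oocyte. Cth made up 6.98% ± 2.78 in KO and 35.3% ± 10.3 in WT oocytes. Slc7a11 took 20.4% ± 3.25 in KO and 35.9% ± 11.3 in WT oocytes, and the shares did not overlap, although its level overlapped, since a share also moves with the other genes of the sum. Among KO oocytes, KO1 and KO2 were higher than KO3 and KO4 in Cdo1, Cth, Gclm and Slc6a6, but not in Csad, Gclc or Slc7a11.

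**Figure D4:**
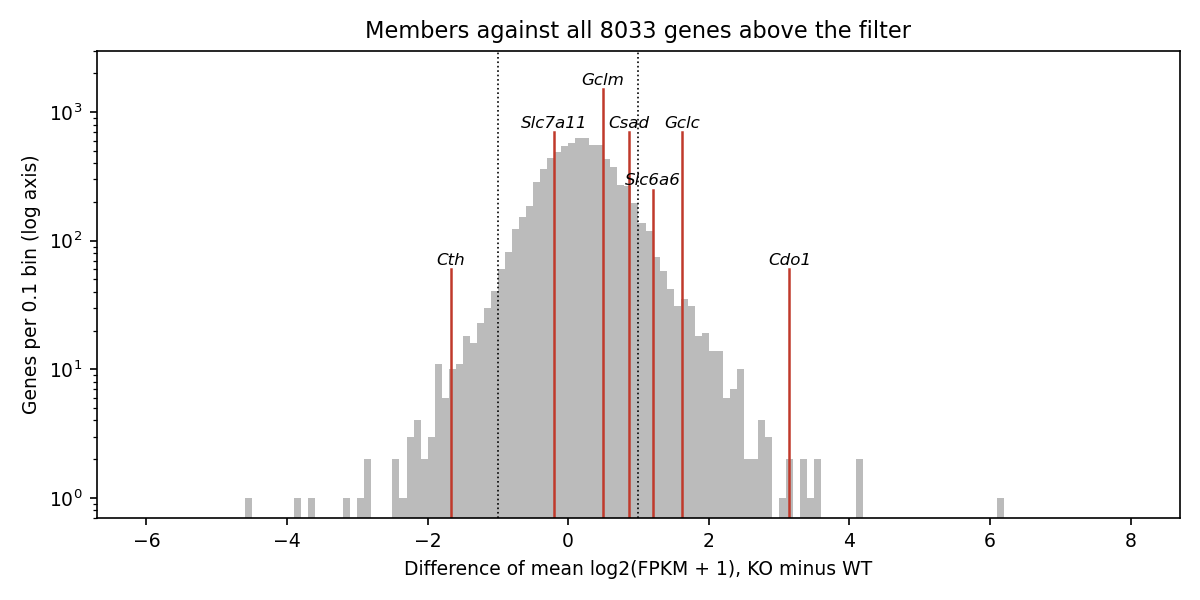
Difference between the genotypes' mean log2(FPKM + 1), as KO minus WT, for the 8033 genes above the filter (grey, genes per 0.1 bin, log axis), with the 7 genes above the filter marked in red and dotted lines at -1 and 1. Cdo1 at 3.15 is at the far right of the distribution and Cth at -1.67 toward its left end, and Slc7a11, Gclm and Csad lie between the dotted lines.

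Around these 10 genes, 7 further lists of the pathway held 135 genes, all found in the table, of which 57 were above the filter. Of these 57, 2 were over 2-fold higher, just 1 was over 2-fold lower, 11 lay wholly above and 4 wholly below WT. Both sets of counts are to be read against the shares of all genes given above. No gene was over 2-fold higher without KO2 and 7 were without WT1, none was over 2-fold lower without KO1, and both median-ratio scaling and quantile normalization gave 0 higher and 3 lower. Their median difference was 0.20, against 0.18 for all genes above the filter. The median of all genes itself was -0.01 with median-ratio scaling, -0.005 with quantile normalization and 0.10 with a pseudocount of 5. List medians under those settings, given below, are to be read against these values.

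The methionine cycle, which feeds transsulfuration, had 5 of 13 genes above the filter, with a median of 0.05. Median-ratio scaling turned it to -0.17, and without KO2 it was -0.10. Mat2b, the regulatory subunit of methionine adenosyltransferase, was at 221, 228, 264 and 243 FPKM in KO1 to KO4, against 353, 485 and 467 FPKM in WT1, WT2 and WT4. Its difference was -0.85, without overlap, and -1.09 with median-ratio scaling. Mat2a, the catalytic subunit, named after its values were seen, was at 7.40 to 17.3 FPKM in KO and 4.94 to 7.18 FPKM in WT oocytes, so the subunits differed in opposite directions.

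Other genes of cysteine breakdown, sulfide and taurine had 8 of 21 above the filter and none over 2-fold apart, with a median of 0.09 that turned to -0.15 with quantile normalization and to -0.22 without WT2. Ethe1, a mitochondrial enzyme of sulfide oxidation, was at 8.16, 6.82, 9.91 and 6.78 FPKM in KO1 to KO4, against 19.1, 14.3 and 12.4 FPKM in WT1, WT2 and WT4. All KO oocytes were below all WT oocytes, with a difference of -0.86 that passed the 2-fold limit with median-ratio scaling (-1.08) and quantile normalization (-1.05). Ado encodes the other mammalian thiol dioxygenase, which makes hypotaurine from cysteamine, and stayed below the filter. It was named after its values were seen. Its level was 0.0466, 0.879, 0.626 and 0.505 FPKM in KO1 to KO4, against 0, 0.0281 and 0.0247 FPKM in WT1, WT2 and WT4. KO1 was only just above the WT oocytes, and the 3 other KO oocytes were well above them.

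Enzymes that use glutathione formed the longest list, with 21 of 44 genes above the filter, 2 over 2-fold higher, none over 2-fold lower, and a median of 0.27 (0.08 with median-ratio scaling). Glo1, the glyoxalase that detoxifies methylglyoxal with glutathione, was at 4.57, 9.50, 4.64 and 7.70 FPKM in KO1 to KO4, against 3.50, 3.77 and 1.24 FPKM in WT1, WT2 and WT4. Gstt2, a theta-class glutathione transferase, was at 2.43 to 3.59 FPKM in KO and 0.152 to 1.80 FPKM in WT oocytes. Both lay at the 2-fold limit, with differences of 1.01 and 1.00, and under it with median-ratio scaling (0.81 and 0.87). Glo1 was also under it without KO2 (0.83), KO4 (0.92) or WT4 (0.66), and Gstt2 without KO1 (0.99), KO2 (0.92) or WT2 (0.63). The most abundant member, Mgst3, a microsomal glutathione transferase named after its values were seen, was at 246 to 279 FPKM in KO and 345 to 403 FPKM in WT oocytes.

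Genes of glutathione breakdown had 4 of 15 above the filter, all overlapping, with a median of -0.02 (-0.24 with median-ratio scaling). The gene named from it is Lap3, a leucine aminopeptidase, at -0.21, and it was 0.01 without WT2 and -0.53 without WT4. In NADPH supply, 8 of 12 genes were above the filter and none was over 2-fold apart, with a median of 0.04 that turned to -0.18 with median-ratio scaling and was 0.16 without WT1. Nadk, the kinase that makes NADP from NAD, was at 13.4, 13.03, 11.2 and 12.3 FPKM in KO1 to KO4, against 8.996, 3.83 and 6.18 FPKM in WT1, WT2 and WT4. Its difference of 0.94 was without overlap. The transport list had 2 of 14 genes above the filter, Slc3a2 and the lysosomal cystine exporter Ctns, and both overlapped. Their median was 0.15, and it was 0.47 without WT4, -0.06 without WT2 and -0.05 with median-ratio scaling. Below the filter, and named after their values were seen, Slc1a1 and Slc36a1 were higher in KO. Slc1a1 was at 0.203 to 2.24 FPKM in KO and 0 to 0.0594 FPKM in WT oocytes, from 861 and 11 reads. Slc36a1 was at 0.452 to 0.858 FPKM in KO and 0.0449 to 0.167 FPKM in WT oocytes. Slc1a4, Slc1a5 and Slc43a1 had lower means in KO, all near 0.

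Of 16 regulators, 9 were above the filter, and their median was 0.60, where that of all genes above the filter was 0.18. The regulators' median was 0.34 with quantile normalization and 0.26 with a pseudocount of 5, where that of all genes was -0.005 and 0.10. Nfe2l2 encodes NRF2, the activator of glutathione synthesis genes through the antioxidant response element. It was at 1.76, 4.33, 3.20 and 2.96 FPKM in KO1 to KO4, against 5.66, 9.36 and 8.36 FPKM in WT1, WT2 and WT4. All KO oocytes lay below all WT oocytes, with a difference of -1.13 that was -0.96 without KO1, -0.998 without WT2 and -0.66 with a pseudocount of 5. Nfe2l2 transcripts were lower in the same oocytes in which Gclc was higher, and Keap1, the gene of the adaptor that marks NRF2 for degradation, was at or near 0 in all oocytes. These are transcript levels alone. NRF2 protein was not measured, and a link between Nfe2l2 and Gclc was not tested. Of the 9 regulators above the filter, 5 lay wholly above WT, against 18.9% of all genes above the filter, and they were Nfe2l1, Mafg, Eif2ak3, Ddit3 and Mtf1, named after their values were seen. The largest of their differences was 0.85, for Eif2ak3, the stress kinase PERK, at 1.28 ± 0.607 FPKM in KO and 0.232 ± 0.132 FPKM in WT oocytes. Eif2ak3 passed the filter only through KO oocytes. Atf4, the activator bound at C/EBP-ATF elements like those in the Slc7a11 window shown above, was at 7.81, 15.2, 7.60 and 6.40 FPKM in KO1 to KO4, against 6.996, 3.24 and 5.72 FPKM in WT1, WT2 and WT4, with overlap.

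**Figure D5:**
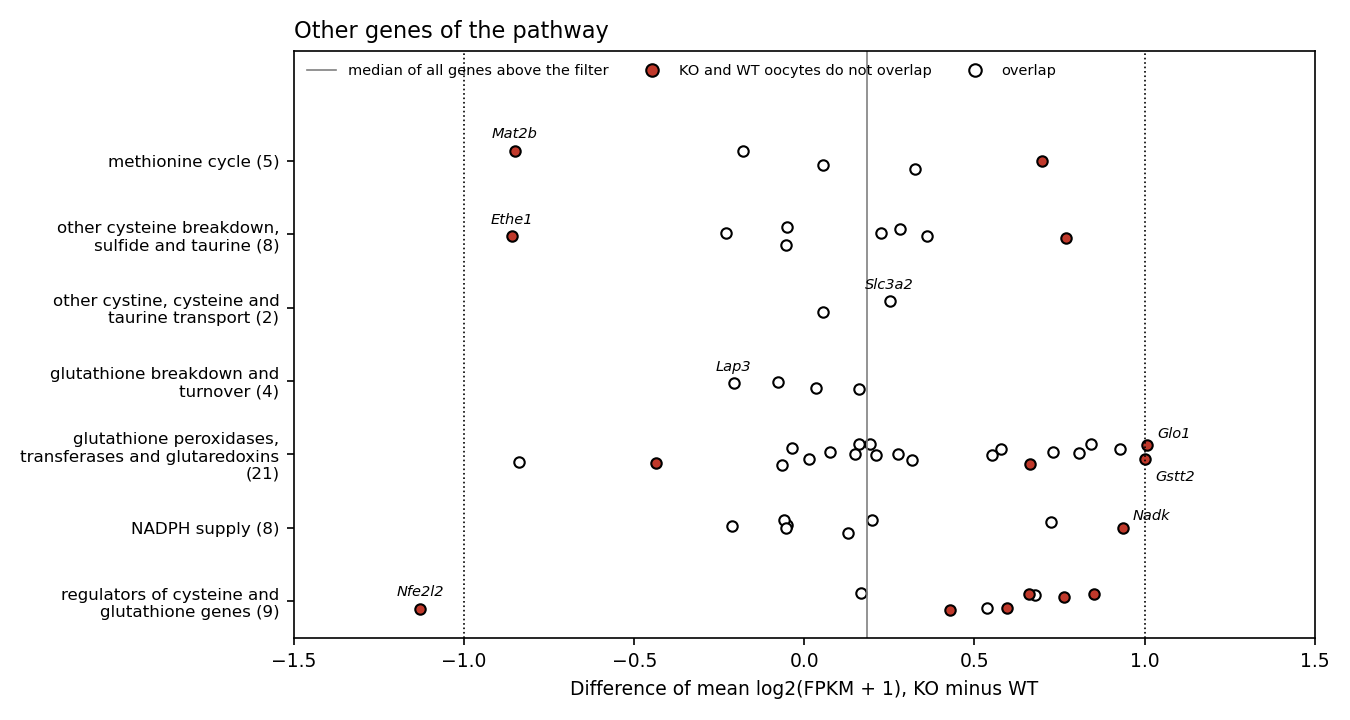
Difference between the genotypes' mean log2(FPKM + 1), as KO minus WT, for the 57 genes of 7 further lists above the filter, 1 point per gene, red where KO and WT oocytes do not overlap and white where they do; the number above the filter follows each list's name, the grey line is the median of all genes above the filter (0.18) and dotted lines mark -1 and 1. Nfe2l2 is the single point left of -1, and Glo1 and Gstt2 lie on the line at 1.

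The genes most like Cdo1 were those with the smallest root mean square distance of log2(FPKM + 1) over the 7 oocytes, after each gene was centred on its own mean. Only genes above the filter with an informative symbol were ranked. Unnamed genes and placeholder symbols, such as Gm or Rik names, were left out. Of those ranked, the 5 nearest were Mpv17l (0.38), Ust (0.53), Pdha2 (0.59), Gapdh (0.61) and Hpse (0.61). Mpv17l encodes a small membrane protein of the MPV17 family and Pdha2 encodes a pyruvate dehydrogenase subunit best known from testis. Ust encodes a sulfotransferase that adds sulfate to chondroitin and dermatan chains, and Hpse encodes heparanase, which cuts heparan sulfate. Ust was at 6.03, 5.32, 4.68 and 5.02 FPKM in KO1 to KO4, against 0.126, 0.136 and 0.218 FPKM in WT1, WT2 and WT4. Hpse was at 41.3, 41.6, 58.3 and 58.3 FPKM in KO1 to KO4, against 6.22, 11.2 and 10.8 FPKM in WT1, WT2 and WT4. KO3 and KO4 were the highest oocytes for Hpse and the lowest KO oocytes for Cdo1, so the likeness of Hpse to Cdo1 lies between genotypes and not within KO. Hpse was not alone in this. Pdha2 was lowest among KO oocytes in KO2 (9.04 FPKM), where Cdo1 was highest. Mpv17l, Ust and Gapdh were highest in KO1. Gapdh, a glycolytic enzyme, has many processed copies in the mouse genome, and its reads cannot be assigned with certainty.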

How the data were processed

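RNA was measured in 7 single MII oocytes. Per the labels' protocols, each oocyte went whole into cDNA synthesis and amplification (SMARTer Ultra Low Input kit) with ERCC spike-in RNA, and pooled libraries were sequenced on an Illumina instrument. The authors deposited linear FPKM values for each Ensembl gene in each library. The submitters' processing notes name edgeR 3.1.10, HTSeq, TopHat2 2.0.2, TopHat, Bowtie 0.12.8, Bowtie2 and the build mm9, and do not say which step used which. No spike-in values were used here. Symbols came from GENCODE M21 (GRCm38), which named 87.4% of identifiers, and promoter sequences from RefSeq.

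The members, lists and choices were made with earlier results of these data known. Genes that reached an FPKM of 1 in 3 or more libraries were compared between genotypes on the mean of log2(FPKM + 1), as KO minus WT, where the pseudocount of 1 understates changes of low genes. Whole reads were recovered as the smallest whole numbers, within a tolerance of 0.01, that fit a gene's values in all libraries, so a common factor would be missed. The procedure was tested on simulated data. Intervals are exact 95% intervals on reads, and since amplified cDNA had no molecular identifiers they cover counting error only. The SD is the spread between oocytes, which may come from 1 or several animals. From each further list, the genes named are those over 2-fold apart without overlap, at most 3, or else the gene with the largest difference. The alternatives were 2 other pseudocounts, 2 scalings, 2 filters, a replicate block and leaving out each oocyte. Numbers were computed with Python 3.11.15, numpy 2.4.6, pandas 2.3.3 and scipy 1.17.1.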

Additional observations from a re-analysis of the deposited data

Results flagged for a closer look

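Cbs in the KO oocytes had 1 oocyte far from the others: KO1 was at 0.235 FPKM (25 reads), while KO3 was at 0.00581 and KO2 and KO4 were listed at 0. The gap between KO1 and the next oocyte was 0.975 of the whole range of the 4 KO oocytes, above the limit of 0.829 for 4 values. It was the only flag among the 10 genes. For normally spread values chance flags about 1 in 20 groups, a rate that does not hold for values near 0 such as these. Groups of 3, such as the WT oocytes, were not examined in this way.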

How the results depend on the processing

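Of 140 values of the 10 genes under 14 alternatives, 133 moved by less than 1 SD between oocytes, 7 moved further, and none of the 4 genes over 2-fold apart changed sign. The 133 include values that could not move, since a filter does not alter a gene's own difference. For the 10 genes the replicate block also gave the same differences as leaving out KO3, so it is not a separate check. Cdo1 stayed between 2.42 and 3.48, Cth between -2.02 and -1.30, Gclc between 0.76 and 2.32 and Slc6a6 between 0.83 and 1.45. The median over all 10 genes was 0.35, and it was 0.66 with a pseudocount of 0.1, 0.12 with a pseudocount of 5 and 0.16 with quantile normalization. Leaving out single oocytes gave 0.24 to 0.44. The count of members over 2-fold higher, 3 as reported, was 1 with a pseudocount of 5, 2 with median-ratio scaling, 2 with a filter at FPKM 10, which Gclc did not pass, and 3 to 4 when single oocytes were left out, and the count over 2-fold lower was 1 under all 14 alternatives. In the 7 further lists, the 2 genes over 2-fold higher became 8 with a pseudocount of 0.1 and 0 with a pseudocount of 5, median-ratio scaling, quantile normalization or a filter at FPKM 10. The 1 gene over 2-fold lower became 2 with a pseudocount of 0.1, 0 with a pseudocount of 5 or a filter at FPKM 10, and 3 with median-ratio scaling or quantile normalization. Leaving out single oocytes gave 0 to 7 higher (0 without KO2, 7 without WT1) and 0 to 1 lower (0 without KO1). A pseudocount of 5 compresses low genes and the stricter filter removes them; the cause of the other changes was not tested. The median over all genes above the filter was 0.18 as deposited and -0.01 with median-ratio scaling, where 5.12% were over 2-fold higher and 4.25% lower.

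Oocytes of both genotypes share the numbers 1, 2 and 4. The deviations of same-numbered oocytes from the genotype means had r = 0.107, -0.116 and -0.0439 over genes. Pairs with unlike numbers had r from -0.114 to 0.102. Such deviations cancel out within a genotype of so few oocytes, so these values cannot tell whether the numbers pair the oocytes. With a replicate block on these numbers, 4 members were over 2-fold higher and 1 lower, and the median of the 10 was 0.36. At this depth, Gss and Cbs rest on too few reads for a difference between genotypes to be read. For Gsr the reads would allow one, but the oocytes of the genotypes overlapped.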
